A study of Homo sapiens with 9 samples.

Results

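RNA was compared between 3 libraries of IMR90 cells carrying a short hairpin RNA against RRM2 and 3 libraries carrying the vector, out of 9 libraries in the series, across all genes expressed above a count filter. RRM2 is the small subunit of ribonucleotide reductase. The 6 libraries were chosen by their labels and not by any measured value. IMR90 is a line of normal human fetal lung fibroblasts with a limited number of divisions in culture. All cells were at population doubling 30, grown in 2% oxygen, infected with lentivirus and again 24 hours later, and selected in 3 ug/mL puromycin for 7 days. Control cells carried pLKO.1 without a hairpin, which the sample labels call empty vector and the treatment protocol calls pLKO.1 GFP. The shRRM2 cells carried pLKO.1-shRRM2 (clone TRCN0000049410) followed by the GFP vector, and the labels call this group senescent. A single hairpin was used, so an effect of its sequence on other transcripts and an effect of RRM2 loss cannot be told apart. The labels do not say whether libraries a, b and c came from separate cultures, and p-values then measure the spread between these libraries, which may be technical. The remaining 3 libraries, which carried a second hairpin against p16, entered the fit for its estimate of spread.

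Ribonucleotide reductase turns ribonucleotides into the deoxyribonucleotides that DNA polymerases use, and cells make RRM2 mainly in S phase. Senescence is a lasting arrest of the cell cycle in which cells stay alive, usually enlarge, build up lysosomes, and secrete cytokines, growth factors and matrix-degrading enzymes. In fibroblasts the arrest is held by the inhibitors p21 (CDKN1A) and p16 (CDKN2A) through RB-family proteins, which shut off genes driven by E2F and by the DREAM complex.

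Counts assigned to genes ranged from 15770895 to 24873291 per library, and 16561 genes were tested. Fibroblast markers were present: all 17 listed had counts in every library, and COL1A1 held at least 209004 counts in each. Of other cell types' markers, 5 of 12 epithelial genes (KRT5, SFTPA1, SFTPC, SCGB1A1 and NKX2-1) had 0 counts in all 6 libraries. So did 5 of 13 leukocyte genes (among them CD3E, MS4A1, TYROBP and AIF1). Of 10 endothelial genes 5 had at most 3 counts in every library, among them CDH5, but TEK had 1091 to 1498. None of the 10 smooth muscle and pericyte genes was that low in all 6 libraries, and ACTG2 had 6855 to 17809 counts. The summed level of the 2 leukocyte genes that passed the count filter was 1.13 to 2.12 CPM in control and 2.60 to 3.50 in shRRM2. That of the 4 epithelial genes that passed it was 24.1 to 25.4 CPM in control and 12.3 to 14.0 in shRRM2. The part of such cells in any result was not tested. Reads outside annotated genes made up 17.6%, 18.9% and 18.6% of uniquely aligned reads in control a, b and c, and 28.8%, 27.7% and 28.8% in shRRM2. The groups did not overlap in this share (exact two-sided permutation p = 0.1, the smallest that 3 against 3 allows).

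The targeted gene checked the labels. RRM2 (GRCh38 chromosome 2, 10120698 to 10131419, plus strand) stood at 481, 491 and 484 CPM in control and 60.0, 63.2 and 63.2 CPM in shRRM2. Every shRRM2 library was far under every control library, and the mean left was 12.8% of control. The log2 fold change was -2.96 ± 0.03 (adjusted p 5.8e-45). RRM1, the large catalytic subunit, also fell, from 199, 201 and 201 CPM in control to 111, 108 and 108 CPM in shRRM2, a log2 fold change of -0.88 ± 0.03 (adjusted p 1.4e-25). RRM2B, a small subunit that cells also make outside S phase, rose from 36.4, 42.7 and 41.3 CPM in control to 91.7, 83.5 and 90.9 CPM in shRRM2, a log2 fold change of 1.15 ± 0.05 (adjusted p 2.9e-23). The cell cycle inhibitor CDKN1A rose by a log2 fold change of 1.03, and CDKN2B (p15) by 0.53 ± 0.11 (adjusted p 3.8e-05). CDKN2A was not called, with 5.95, 6.15 and 5.96 CPM in control and 6.79, 6.75 and 5.97 CPM in shRRM2 and a log2 fold change of 0.11 ± 0.12 (adjusted p 0.431); the groups overlapped, and its count does not separate p16 from the other product of the locus.

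At an adjusted p under 0.05, 10079 genes (60.9% of those tested) differed between the groups, 4810 of them higher in shRRM2 (29.0%) and 5269 lower (31.8%). Most of these changes were small: 6217 of the called genes, or 61.7%, were changed by less than 1.5-fold. The median change of all tested genes was 0.00 on the log2 scale. With total counts without scaling factors, 5365 genes were called higher and 4675 lower, so which direction held more genes depended on the scaling. Changes of 2-fold or more were called in 1667 genes (10.1%), 1127 higher (6.81%) and 540 lower (3.26%). That split went with abundance. When genes were split by mean level into 5 equal groups, 634 rose and 97 fell by 2-fold or more in the lowest group, while 53 rose and 107 fell in the highest. With at least 10 counts required in every library the split was 580 higher and 396 lower, and among protein-coding genes with a mean log2 CPM (counts scaled to library size, over all 9 libraries) at or above 2 it was 261 higher and 324 lower. Control and shRRM2 values were without overlap in 63.6% of tested genes. At 4-fold or more, 112 genes were higher and 72 lower. For genes with mean log2 CPM at or above 2 the median standard error was 0.059, and differences far smaller than 1.5-fold passed the test. The background for the gene groups below is 29.0% higher, 31.8% lower and a median of 0.00 over all tested genes. For lists of protein-coding genes a nearer background leans down: 27.8% of that class rose, 38.2% fell and its median was -0.05. In the highest of the 5 abundance groups 33.2% rose and 47.2% fell. Among the shortest of 5 protein-coding groups by genomic span, 18.4% rose, 46.5% fell and the median was -0.16. Small downward shifts in lists of short or abundant genes are less distinctive against these. A value in brackets after the name of a gene that fell, and the amount by which a gene rose, are log2 fold changes unless a fold is stated.

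**Figure D1:**
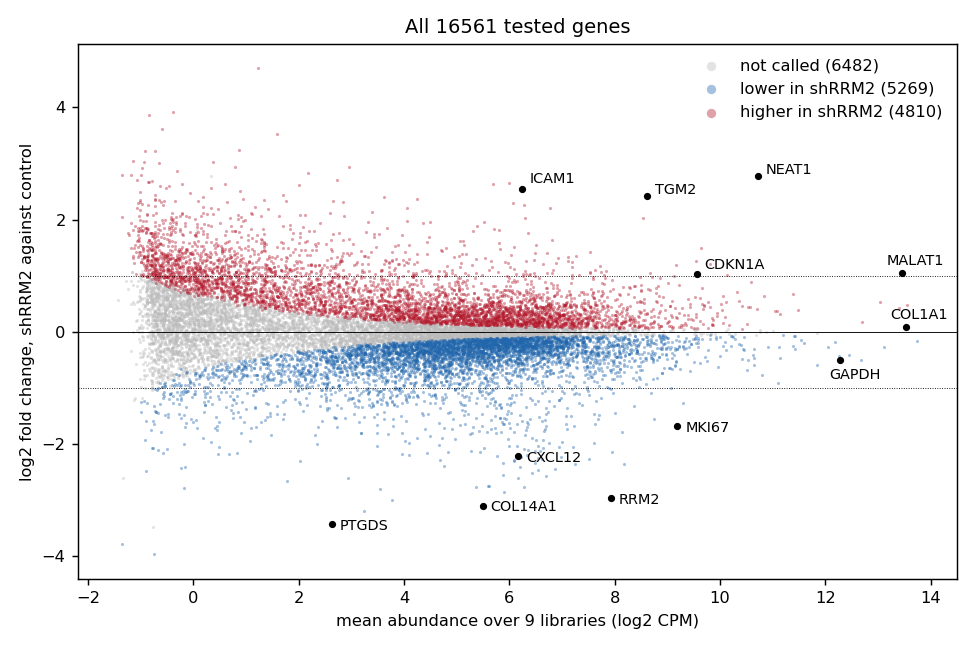
Log2 fold change of shRRM2 against control (y axis) against mean abundance over 9 libraries (x axis, log2 CPM) for each tested gene; grey genes were not called, blue were lower and red higher, and dotted lines mark 2-fold. The 4810 higher genes spread upward at low abundance, while well-counted genes past 2-fold lie on both sides, with RRM2, COL14A1 and PTGDS among the lowest.

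Genes of mitosis had the lowest median change of the 53 gene lists. All 35 tested genes of the mitosis and cytokinesis list fell, with a median log2 fold change of -1.56, and 32 of them fell by 2-fold or more. KIF20A, the kinesin of the central spindle, went from 173, 176 and 172 CPM in control to 31.7, 32.0 and 31.3 CPM in shRRM2, a log2 fold change of -2.45 ± 0.04 (adjusted p 2.6e-38). The mitotic kinase PLK1 stood at 181, 182 and 177 CPM in control and 41.8, 42.0 and 39.9 CPM in shRRM2, and the change was -2.13 ± 0.04 (adjusted p 7.2e-37). In both genes the libraries of a group lay within a few CPM of each other, and the groups were far apart. CDC20 (-2.10), which activates the anaphase-promoting complex, and the cyclin B1 gene CCNB1 (-1.98) also fell. In bulk RNA, fewer cells in mitosis and less of these RNAs per cell cannot be told apart. All 32 tested kinetochore and spindle checkpoint genes fell as well, 28 by 2-fold or more, with a median of -1.40. CENPA, the histone H3 variant that marks centromeres, went from 31.9, 32.6 and 30.7 CPM in control to 6.09, 6.92 and 7.63 CPM in shRRM2, and OIP5, of the complex that loads it, went from 8.74 to 2.18 CPM. CDCA8 of the chromosomal passenger complex (-1.79) and SPC24 of the outer kinetochore (-1.66) fell too.

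DNA replication genes all moved the same way but less far. Each of the 44 genes of the replisome and origin licensing list fell, with a median of -0.91, and 10 passed 2-fold. TOP2A, a topoisomerase that also acts in mitosis, fell most, from 664, 693 and 657 CPM in control to 228, 223 and 237 CPM in shRRM2, a log2 fold change of -1.55 ± 0.03 (adjusted p 2.4e-36). The primase subunit PRIM1 (-1.40), the fork protection gene TIMELESS (-1.27) and the polymerase alpha subunit POLA1 (-1.26) followed. Repair genes were more mixed in size: of 32 recombination and Fanconi genes 28 fell and 1 rose, with a median of -0.61. The nuclease subunit EME1 (12.3 to 4.24 CPM), the ubiquitin-conjugating enzyme UBE2T (47.8 to 17.6 CPM) and FANCD2 (52.0 to 21.3 CPM) fell as well. RAD50, part of the break-sensing MRN complex, was the member that rose, at 59.3, 59.6 and 60.0 CPM in control and 80.6, 72.4 and 80.3 CPM in shRRM2 and a log2 fold change of 0.38 ± 0.04 (adjusted p 5.3e-10).

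Among damage checkpoint genes, 8 of 15 tested fell and 1 rose. ATM, the kinase that signals double-strand breaks, rose by 0.43 ± 0.04 (adjusted p 1.1e-12). H2AFX, the histone variant phosphorylated at breaks, fell from 243 to 86.3 CPM, and the mitotic entry brake WEE1 from 86.2 to 52.0 CPM. The cyclin-dependent kinase inhibitors did not move as 1 group: CDKN1A and CDKN2B rose while CDKN2C (p18), CDKN2D (p19), CDKN1B (p27) and CDKN3, a phosphatase of CDKs, fell. CDKN2C stood at 45.5, 44.6 and 45.9 CPM in control and 11.0, 11.8 and 10.9 CPM in shRRM2, a log2 fold change of -2.01 ± 0.07 (adjusted p 1.8e-27), and CDKN1B changed by -0.82 ± 0.06 (adjusted p 6.8e-16). In both genes every shRRM2 library lay under every control library.

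The G1 list of cyclins, RB family and E2F genes split, with 8 of 25 higher and 13 lower. Cyclin D2 (CCND2) rose from 45.0, 42.9 and 45.2 CPM in control to 127, 123 and 128 CPM in shRRM2, a log2 fold change of 1.51 ± 0.04 (adjusted p 9.6e-31), and every shRRM2 library was far above every control library. CDK6, a kinase partner of D cyclins, rose by 0.74, cyclin E1 (CCNE1) by 0.74 and cyclin D1 (CCND1) by 0.47 on the log2 scale. E2F8 (-1.23), E2F2 (-0.99), the RB relative RBL1 (-0.92) and the MuvB subunit LIN52 (-0.89) fell. E2F1 went from 35.4 to 21.0 CPM (-0.75 ± 0.06, adjusted p 6.7e-14), and MYBL2, which forms an activating complex with MuvB, from 93.4 to 31.6 CPM (-1.56 ± 0.05, adjusted p 1.6e-29).

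Most chromosome structure genes fell. Of 21 condensin and cohesin genes 16 fell and 2 rose, with a median of -0.90; the condensin I subunits NCAPH, NCAPG and NCAPD2 fell (-1.69, -1.34 and -1.27). ESCO1, a cohesin acetyltransferase, rose from 9.64, 9.11 and 8.40 CPM in control to 17.7, 15.1 and 18.7 CPM in shRRM2 (0.91 ± 0.09, adjusted p 1.4e-11). In the list of lamina, high-mobility-group and chromatin genes 25 of 28 fell and 3 rose, with a median of -0.73. Those that fell furthest were the lamin B1 gene LMNB1 (-1.92), HMGB2 (-1.68), HMGB3 (-1.68) and the lamina-associated TMPO (-1.50). HMGA2, a chromatin architectural protein, rose from 308, 325 and 334 CPM in control to 541, 531 and 534 CPM in shRRM2, a log2 fold change of 0.73 ± 0.03 (adjusted p 9.8e-25). Of 10 replication-independent histone variant genes 8 fell, among them H2AFZ (277 to 126 CPM), and H2AFJ rose from 15.1 to 21.1 CPM.

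**Figure D2:**
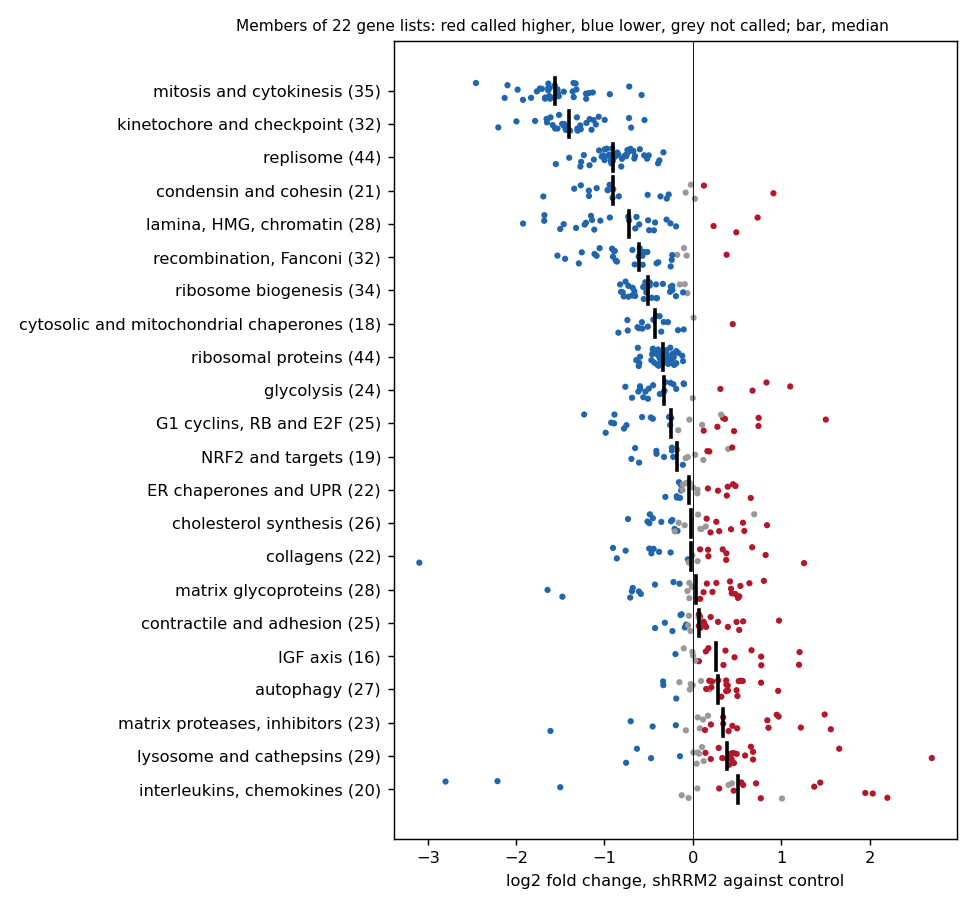
Log2 fold change of shRRM2 against control (x axis) for each tested member of 22 gene lists (y axis, number tested in brackets); red members were called higher, blue lower, grey were not called, and bars are medians. The 35 mitosis, 32 kinetochore and 44 replisome genes all lie left of 0, the 44 ribosomal protein genes sit close together left of 0, and chemokine, lysosome and protease genes spread to the right.

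Since mitosis and replisome genes fell together, cell cycle motifs were counted in their promoters, and 5 promoters are shown because they carry such motifs just before the start. Motifs were searched on both strands in RefSeq promoter windows (GRCh38.p14, 250 bases before to 50 after the start): the cell cycle homology region (CHR), TTTGAA, a DREAM and MuvB site, and an E2F motif as TTTCCCGC, TTTGGCGC, TTTCGCGC or TTTGCCGC. The NF-Y box CCAAT was searched too. The last 120 bases before the start are printed 5′ to 3′ on the gene's strand, with CHR or E2F letters in capitals.
CCNB2, GRCh38.p14 chr15:59105026-59105145, plus strand: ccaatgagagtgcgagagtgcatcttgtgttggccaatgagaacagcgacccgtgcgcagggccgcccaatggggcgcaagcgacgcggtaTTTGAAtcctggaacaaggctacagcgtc
CDC20, GRCh38.p14 chr1:43358861-43358980, plus strand: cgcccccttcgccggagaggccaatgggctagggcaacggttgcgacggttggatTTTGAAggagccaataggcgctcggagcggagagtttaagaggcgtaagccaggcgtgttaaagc
PLK1, GRCh38.p14 chr16:23678769-23678888, plus strand: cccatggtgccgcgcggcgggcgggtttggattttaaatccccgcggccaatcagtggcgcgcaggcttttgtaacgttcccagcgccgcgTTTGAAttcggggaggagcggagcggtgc
E2F1, GRCh38.p14 chr20:33686386-33686505, minus strand: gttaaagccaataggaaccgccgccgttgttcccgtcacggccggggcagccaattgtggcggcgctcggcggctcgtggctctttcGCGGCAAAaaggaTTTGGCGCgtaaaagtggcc
MCM6, GRCh38.p14 chr2:135876444-135876563, minus strand: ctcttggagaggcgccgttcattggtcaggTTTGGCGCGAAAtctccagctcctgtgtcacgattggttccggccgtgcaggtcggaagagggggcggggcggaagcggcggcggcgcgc
The CHR began 29 bases before the start in CCNB2, 65 in CDC20 and 29 in PLK1. In E2F1 the letters began 33 bases before the start on the opposite strand and 20 bases before it on the gene's strand, and in MCM6 they began 90 and 86 bases before it, overlapping on the 2 strands. The same 120 bases of RRM2, CDC6, MYBL2 and CCNB1 held neither motif, which says only that these letters are not in this window.

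Over the whole 300-base window, the CHR letters were found in 22 of 30 mitosis promoters (73.3%), 2 of 37 replisome promoters (5.41%) and 15.4% of all 27305 promoters. The E2F letters were found in 3 of 30 mitosis promoters (10.0%), 17 of 37 replisome promoters (45.9%) and 3.33% of all. The CCAAT box was found in 76.7% of mitosis promoters, 56.8% of replisome promoters and 35.7% of all. Recombination and Fanconi promoters held E2F letters in 5 of 28 (17.9%) and the CHR in 3 of 28 (10.7%). Of 32 kinetochore genes 24 had a window, with the CHR in 12 (50%) and E2F letters in 3 (12.5%). The shares depended on the window. In the 100 bases before the start, the CHR was in 43.3% of mitosis promoters and 4.64% of all. E2F letters were there in 21.6% of replisome promoters and 1.16% of all. Among 3781 promoters of tested genes that were not called, the CHR was found in 8.70%, E2F letters in 4.39% and the CCAAT box in 34.0%. GC content was 62.6% for the mitosis windows, 64.4% for the replisome windows, 64.2% for genes not called and 57.2% over all promoters. The part of GC content in these shares was not tested. Of the genes shown and not yet given, CCNB2 (-1.73) and MCM6 (-0.90) fell. A match is a description of the sequence and not of binding, and genes without a window in the table (among them 5 mitosis, 7 replisome and 4 repair genes) are not counted.

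Secreted inflammatory genes moved in both directions. Of 24 interleukin and chemokine genes 20 were tested, 11 rose and 3 fell, with a median of 0.51. IL6 (GRCh38 chromosome 7, 22725884 to 22732002, plus strand) rose from 7.04, 7.21 and 8.40 CPM in control to 32.4, 33.1 and 37.8 CPM in shRRM2, a log2 fold change of 2.20 ± 0.07 (adjusted p 1.4e-27). IL1B, a secreted inflammatory cytokine, rose from 3.02, 2.29 and 3.81 CPM in control to 11.3, 12.2 and 13.7 CPM in shRRM2, with 2.04 ± 0.12 (adjusted p 2.7e-19). For both cytokines the lowest shRRM2 library was above the highest control library. The genes that fell were chemokines: CXCL12, which draws lymphocytes and stem cells through CXCR4, went from 130.3, 131 and 143 CPM in control to 27.2, 30.2 and 29.7 CPM in shRRM2, a change of -2.21 ± 0.05 (adjusted p 1.4e-34). CXCL2 and CXCL3, which attract neutrophils, fell (-2.80 and -1.50), on few reads, with CXCL2 at 31, 35 and 33 counts in control and 5, 3 and 4 in shRRM2. CXCL1 was not called, at 0.754, 1.12 and 1.13 CPM in control and 1.33, 1.10 and 1.55 CPM in shRRM2. CXCL1, CXCL2 and CXCL3 are near-identical copies, so the division of reads among them is uncertain. IL11 was not called either, with 221 to 214 CPM and -0.05 ± 0.03 (adjusted p 0.165).

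Genes of prostaglandin synthesis and reception also moved both ways. PTGS2 (cyclooxygenase 2), which starts prostaglandin synthesis, rose from 19.9, 18.3 and 19.5 CPM in control to 80.3, 79.8 and 77.2 CPM in shRRM2, a log2 fold change of 2.04 ± 0.05 (adjusted p 7.0e-34). PTGDS, the prostaglandin D synthase, had the lowest change among called genes whose mean log2 CPM reached 2, from 10.4, 9.11 and 10.7 CPM in control to 1.14, 0.865 and 0.803 CPM in shRRM2, at -3.43 ± 0.17 (adjusted p 1.4e-21). The receptor gene PTGIR rose by 1.65 and PTGER2 fell (-1.30). In all, 3 of 14 tested genes of the prostaglandin list rose and 9 fell. Of 12 complement and innate genes 6 rose and 3 fell. C3, the central complement component, rose from 3.69, 3.35 and 3.04 CPM in control to 12.1, 11.6 and 13.8 CPM in shRRM2 (1.88 ± 0.11, adjusted p 2.9e-19), and the protease inhibitor A2M from 21.6 to 65.9 CPM, by 1.61 on the log2 scale, while C1R fell (-0.71).

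Genes that remodel the matrix mostly rose: 14 of 23 tested proteases and inhibitors rose and 4 fell, with a median of 0.34. PLAT, the tissue plasminogen activator, rose from 404, 381 and 388 CPM in control to 1082, 1115 and 1103 CPM in shRRM2, a log2 fold change of 1.49 ± 0.03 (adjusted p 1.4e-37). The stromelysin MMP3 rose by 1.22, the collagenase MMP1 by 0.97 and membrane-bound MMP15 by 1.56. MMP12 (-1.61) and ADAMTS1 (-0.70), which cleaves proteoglycans, fell, the latter from 647 to 398 CPM. In the insulin-like growth factor list 11 of 16 tested genes rose and 1 fell, with a median of 0.26. PAPPA, the protease that frees IGF from its binding proteins, rose from 269.6, 256 and 261 CPM in control to 601, 608 and 609 CPM in shRRM2 (1.21 ± 0.03, adjusted p 3.3e-34), and IGFBP7 from 74.9, 70.4 and 70.1 CPM in control to 161, 177 and 158 CPM in shRRM2 (1.20 ± 0.04, adjusted p 5.4e-27). IGFBP3 and IGFBP4 were not called, with log2 fold changes of 0.03 ± 0.03 (adjusted p 0.322) and 0.00 ± 0.02 (adjusted p 0.936). IRS1, the receptor substrate, was the member that fell.

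Structural matrix genes were divided. Of 22 tested collagen genes 9 rose and 10 fell. COL14A1, which binds and spaces fibrils, fell from 61.4, 59.8 and 59.5 CPM in control to 6.92, 7.04 and 7.17 CPM in shRRM2, a log2 fold change of -3.10 ± 0.07 (adjusted p 5.9e-35). COL11A1, which nucleates fibrils, rose from 67.5, 64.1 and 67.3 CPM in control to 157, 157 and 162 CPM in shRRM2, with 1.26 ± 0.04 (adjusted p 5.7e-29), and the basement membrane chain COL4A1 rose by 0.67. COL6A2, of microfibrils around cells, fell from 2691 to 1438 CPM (-0.90). The main fibril chain COL1A2 rose by 0.18. Of 28 tested matrix glycoproteins 14 rose and 10 fell: the elastic fibre genes MFAP4 (-1.64), FBLN1 (-1.48) and ELN (-0.69) and the small proteoglycan DCN (-0.71) fell. SPARC rose by 0.64, versican (VCAN) by 0.54 and THBS1 by 0.53.

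Adhesion and contractile genes changed little in size, none of the 25 by 2-fold; 14 rose and 7 fell, against 8 and 10 without the low-count filter, and 3 fell when well-counted protein-coding genes were fitted alone. Integrin beta 5 (ITGB5) rose from 262, 255 and 257 CPM in control to 487, 519 and 515 CPM in shRRM2, by 0.98 ± 0.03 (adjusted p 1.2e-29), while filamin A, FLNA (-0.43), and smooth muscle actin, ACTA2 (-0.32), fell. Of 18 YAP and TEAD pathway genes 10 rose and 6 fell. ANKRD1 rose from 5.57, 6.09 and 5.42 CPM in control to 29.7, 30.1 and 30.6 CPM in shRRM2 (2.40 ± 0.08, adjusted p 6.1e-27), and F3, the start of coagulation, by 1.05; the coactivator WWTR1 (TAZ) fell (-0.80). In the TGF-beta and BMP list 9 of 27 rose and 11 fell. The ligands GDF15 (14.8 to 93.6 CPM) and BMP2 (9.15 to 35.0 CPM) rose by 2.66 and 1.95, and the BMP antagonist NOG by 1.05. The BMP-induced genes SMAD6, ID1, ID2 and ID3 fell (-1.12, -1.08, -0.98 and -0.72). ID1 stood at 167, 162 and 154 CPM in control and 77.0, 82.8 and 68.2 CPM in shRRM2, with no overlap between groups. Of 26 WNT, Notch and hedgehog genes 8 rose and 7 fell. HHIP, a membrane protein that binds hedgehog ligands, rose from 25.0, 26.4 and 27.2 CPM in control to 89.6, 93.0 and 91.0 CPM in shRRM2 (1.80 ± 0.05, adjusted p 5.9e-30), the WNT antagonist SFRP1 rose by 0.88, and the Notch target HES1 and the hedgehog effector GLI1 fell (-1.59 and -1.30).

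Lysosomal genes rose more often than they fell, 19 against 4 of 29 tested, with a median of 0.38. Cathepsin S (CTSS) rose from 0.461, 0.503 and 0.536 CPM in control to 4.06, 3.17 and 2.64 CPM in shRRM2, a log2 fold change of 2.71 ± 0.26 (adjusted p 2.0e-12), on 11, 9 and 9 counts in control and 64, 55 and 46 in shRRM2. The glycosidase FUCA1 rose by 1.66, and cathepsin Z (CTSZ) by 0.68; CTSC (-0.47) and GUSB (-0.63) fell. GLB1, the enzyme behind senescence-associated beta-galactosidase staining, stood at 61.6, 62.0 and 60.5 CPM in control and 80.2, 86.9 and 77.8 CPM in shRRM2, with 0.41 ± 0.04 (adjusted p 8.3e-11). Of 27 autophagy genes 18 rose and 3 fell, with a median of 0.29. The LC3 relative GABARAPL1 rose from 79.8, 77.0 and 75.8 CPM in control to 148, 151 and 156 CPM in shRRM2 (0.97 ± 0.04, adjusted p 4.6e-26), WIPI1 by 0.77 and the stress sensor SESN2 by 0.54, and ATG5 fell (-0.34).

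Genes for making proteins fell together, by small amounts. All 44 cytosolic ribosomal protein genes fell, with a median of -0.34 and a range of -0.64 to -0.11, and their groups did not overlap in any of the 44. RPLP0 went from 652, 628 and 617 CPM in control to 400.3, 426 and 392 CPM in shRRM2 (-0.64 ± 0.03, adjusted p 2.6e-22). Of the 44 genes, 42 to 44 were called lower under each alternative tried. Ribosome biogenesis genes fell in 31 of 34 with none higher and a median of -0.51; the rRNA methyltransferases NOP2 (-0.82) and FBL (-0.79) and the RNA polymerase I subunit POLR1E (-0.78) were among them. Ribosomal protein genes have many processed pseudogenes, and reads that align to several places were tallied apart from gene counts. Chaperones fell in 16 of 18 tested, with a median of -0.43: the chaperonin genes CCT5 (-0.84), HSPD1 (-0.74) and HSPE1 (-0.74) and the chaperone HSP90AA1 (-0.63) fell furthest. CRYAB, a small heat shock protein, rose by 0.45.

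The ATF4 and amino acid list had 14 of 18 genes lower and 3 higher. The serine synthesis enzymes PSAT1 and PHGDH fell (-1.23 and -1.12), with PHGDH at 50.7, 46.5 and 48.1 CPM in control and 21.4, 23.1 and 22.3 CPM in shRRM2. Asparagine synthetase (ASNS) fell (-1.02). CHAC1, which degrades glutathione, rose from 34.0, 29.7 and 35.4 CPM in control to 72.4, 77.4 and 70.4 CPM in shRRM2 (1.15 ± 0.06, adjusted p 1.1e-21), and ATF3 was not called at 0.15 ± 0.09 (adjusted p 0.160). Of 19 tRNA synthetases 13 fell and 3 rose, with none past 2-fold. Endoplasmic reticulum stress genes, with 7 of 22 higher and 7 lower (11 lower without the low-count filter), were near the shares of all tested genes. DNAJB9 rose by 0.66 and PDIA4 fell (-0.31). NRF2 and its targets had 10 of 19 lower and 3 higher, with NQO1 at 58.1, 56.7 and 58.4 CPM in control and 36.5, 36.3 and 37.3 CPM in shRRM2 (-0.65 ± 0.05, adjusted p 3.8e-15), PGD lower (-0.70) and the ferritin light chain FTL higher by 0.45.

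Glycolysis genes fell in 19 of 24, with a median of -0.33, and rose in 4. Hexokinase 2 (HK2) rose from 74.8, 70.0 and 72.4 CPM in control to 154, 161 and 152 CPM in shRRM2, a log2 fold change of 1.10 ± 0.04 (adjusted p 1.9e-27), and the glucose transporters SLC2A1 and SLC2A3 by 0.83 and 0.68, and the lactate exporter SLC16A3 by 0.31. Enolase, ENO1 (-0.76), and the phosphofructokinase PFKP (-0.69) fell. Nuclear-encoded respiratory chain genes fell in 19 of 30 and rose in 1, none by 2-fold. Of 13 mitochondrially encoded genes 11 were lower and none higher, but 6 were lower with DESeq2 and 7 when well-counted protein-coding genes were fitted alone; MT-ATP6 stood at 1128, 868 and 1021 CPM in control and 706, 729 and 665 CPM in shRRM2 (-0.52 ± 0.04, adjusted p 5.2e-14). Cholesterol synthesis genes, 8 of 26 higher and 10 lower, were near the shares of all protein-coding genes. Of 12 fatty acid genes 7 fell, among them SCD (-0.51) and FASN (-0.44).

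Transcription factors of the immediate early response fell in 12 of 16 tested, with a median of -0.55. FOSL1 went from 319, 321 and 331 CPM in control to 173, 172 and 182 CPM in shRRM2 (-0.88 ± 0.03, adjusted p 1.7e-26), FOS (-1.08) and FOSB (-1.53) fell, and MAFF rose by 0.39. The ERK phosphatases DUSP4 and DUSP6 rose by 1.21 and 0.75, in a list with 5 of 15 higher (3 without the low-count filter) and 4 lower. In the BCL2 family the pro-death genes BMF and BBC3 rose by 1.08 and 0.65, the survival gene BCL2L1 rose from 117, 115 and 121 CPM in control to 180.5, 177 and 189 CPM in shRRM2 (0.63 ± 0.04, adjusted p 1.3e-19), and BCL2L11 (BIM) and BCL2 fell (-1.54 and -0.64); 6 of 16 rose and 6 fell (2 fell when well-counted protein-coding genes were fitted alone). In a list that joins nucleic acid sensing genes with nucleic acid clearance genes, 7 of 14 fell and 4 rose. The 3 subunits of RNase H2, which removes ribonucleotides from DNA, were among those lower: RNASEH2A (-1.71), RNASEH2C (-0.74) and RNASEH2B (-0.56). The double-stranded RNA receptor TLR3 rose by 1.04, and DDX58, DNASE2 and TBK1 also rose. TMEM173 (STING) was not called, at 0.08 ± 0.06 (adjusted p 0.208), and neither were IFIH1 and MAVS. Of 16 MHC class I presentation genes only 7 passed the count filter. Of these 4 rose, with ERAP2 at 0.63 and B2M at 0.27, and 1 fell, HLA-B.

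In the HOX clusters, which keep positional identity, 5 of 16 tested genes rose (3 without the low-count filter) and 6 fell, HOXB4 from 31.9 to 50.7 CPM and HOXA3 from 43.0 to 26.0 CPM. Of 19 mTOR pathway genes 5 rose and 7 fell: RICTOR, the core of mTORC2, rose by 0.51, and the translation repressor EIF4EBP1 fell (-0.73). The metal-binding genes MT2A and MT1E rose by 0.61 and 0.85, with the division of reads among metallothionein copies uncertain.

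Surface receptors were split, 9 of 20 higher and 9 lower. ICAM1, which leukocytes bind, rose from 17.2, 18.8 and 16.7 CPM in control to 97.9, 107 and 103 CPM in shRRM2, a log2 fold change of 2.55 ± 0.05 (adjusted p 1.6e-35), while VCAM1 was not called, at -0.03 ± 0.19 (adjusted p 0.914). DPP4 rose from 46.8, 50.6 and 47.3 CPM in control to 121, 119 and 124 CPM in shRRM2 (1.33 ± 0.04, adjusted p 1.6e-29) and GPNMB by 1.53. The PDGF receptors PDGFRA and PDGFRB fell (-0.50 and -0.31), as did caveolin, CAV1 (-0.64). Fibroblast markers were lower in 11 of 17 and higher in 4: vimentin, VIM (-0.60), and the lung fibroblast factor TBX4 (-0.89) fell, while FAP, a protease of activated fibroblasts, rose from 55.9, 64.6 and 56.1 CPM in control to 119, 113 and 119 CPM in shRRM2 (adjusted p 1.3e-22). Of 9 tested smooth muscle and pericyte genes 3 rose and 6 fell: RGS5 rose by 2.07 and ACTG2 fell (-0.74). Of 4 tested epithelial genes the tight junction gene CLDN4 fell from 22.9 to 10.7 CPM. CDH1 rose by 1.08, on 4 to 14 counts per library, and the other 2 were not called. The leukocyte gene LYZ rose on 22, 29 and 26 counts in control and 41, 40 and 47 in shRRM2.

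Among called genes whose mean log2 CPM reached 2, those with the largest changes came from many pathways. The mean is over all 9 libraries, and CTSS and CXCL2, given above, reached it only with the 3 p16-hairpin libraries counted in. INMT, a methyltransferase of indoleamines, rose from 2.81, 2.12 and 2.50 CPM in control to 19.7, 19.2 and 18.6 CPM in shRRM2 (2.93 ± 0.12, adjusted p 2.4e-24). NEAT1 (GRCh38 chromosome 11, 65422774 to 65445540, plus strand), the RNA scaffold of paraspeckles, rose from 435, 469 and 469 CPM in control to 3159, 3051 and 3149 CPM in shRRM2 (2.77 ± 0.03, adjusted p 1.8e-46). TGM2, a transglutaminase that crosslinks proteins, rose from 145, 148 and 147 CPM in control to 770.4, 782 and 791 CPM in shRRM2 (2.41 ± 0.03, adjusted p 1.9e-44); it lies over RPRD1B on the opposite strand. The 3 libraries of each group lay close together in NEAT1 and TGM2, with a wide gap between groups. The tight junction gene CLDN1 rose by 2.64, the thyroid hormone deiodinase DIO2 by 2.37 and the lipase LIPG by 2.32. LRMDA and PARM1 rose by 2.84 and 2.34. On the other side, SAPCD2 went from 19.4, 20.4 and 18.6 CPM in control to 2.09, 2.19 and 2.12 CPM in shRRM2 (-3.18 ± 0.12, adjusted p 5.6e-26), and 7 of the 12 lowest genes were clustered histones, near-identical copies whose single counts are uncertain; among them HIST1H2BM (-2.77) and HIST1H3H (-2.60). Chromosome 6, which holds the main histone cluster, had 65 of its 745 tested genes lower by 2-fold or more, against 540 of 16561 overall.

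**Figure D3:**
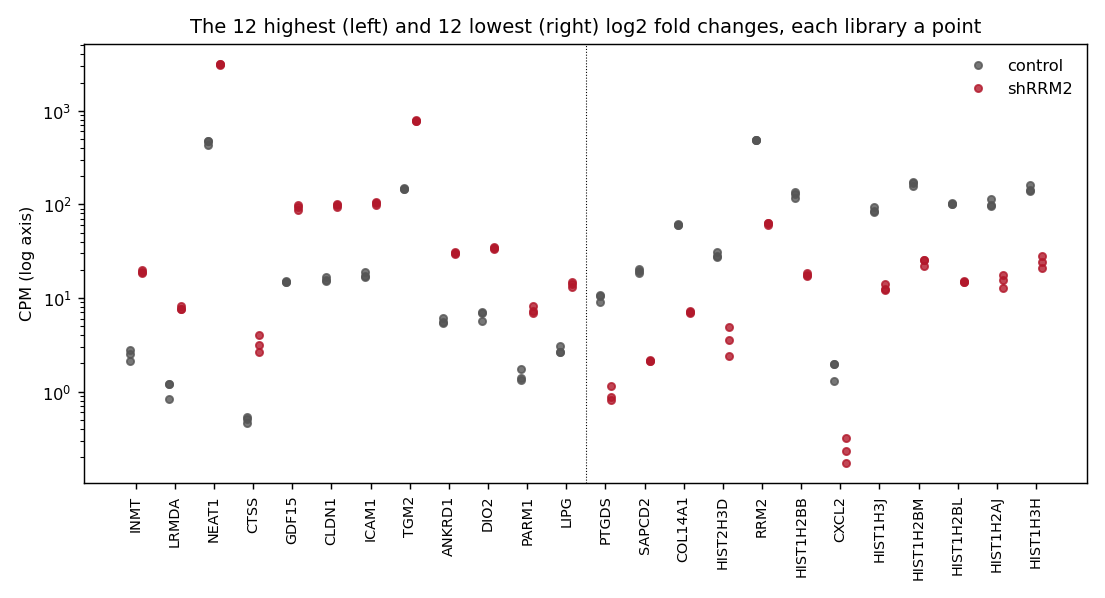
CPM in each library (y axis, log scale; grey control, red shRRM2) for the 12 genes with the highest and the 12 with the lowest log2 fold change among called genes whose mean log2 CPM reached 2. Only genes whose 3 libraries did not overlap those of the other group could be chosen, so the gap in all 24 was set in advance. Log2 fold changes ran from 2.93 for INMT to -3.43 for PTGDS.

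A few genes were at the limit of counting in 1 group. In 25 genes called higher, no control library held more than 3 counts. PDGFB, a growth factor for mesenchymal cells, had 2, 3 and 1 counts in control and 20, 18 and 29 in shRRM2, at least 8.41-fold higher against a floor of 3 counts per library. APOB, a lipoprotein component, had 2, 1 and 2 counts in control and 23, 30 and 17 in shRRM2, at least 8.82-fold higher, and MDGA2 was at least 6.88-fold higher. In the opposite direction 4 genes were at the floor in shRRM2, and GABRQ, a GABA receptor subunit, had 23, 14 and 23 counts in control and 2, 0 and 1 in shRRM2, at least 5.82-fold lower.

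Genes outside protein coding leaned upward. Of 793 tested lincRNAs 292 rose and 61 fell, with a median log2 fold change of 0.41; of 812 antisense genes 232 rose and 64 fell (0.26); and of 260 sense-intronic genes 123 rose and 8 fell (0.68). Protein-coding genes had 3626 higher and 4977 lower of 13032, with a median of -0.05, and snoRNA genes 7 higher and 12 lower of 49. LincRNAs took 1.17% ± 0.0232 of gene counts in control and 2.41% ± 0.0768 in shRRM2 (SD, n = 3), of which MALAT1 and NEAT1 together took 0.777% and 1.87%. Named examples were KCNQ1OT1, the long antisense RNA of the KCNQ1 locus, which rose from 87.1, 91.5 and 94.5 CPM in control to 214, 211 and 220.0 CPM in shRRM2 (1.24 ± 0.04, adjusted p 4.1e-30), and HCG18, which rose by 1.09. PGM5P2 was among the pseudogenes that rose, by 1.30. Others fell: TMPO-AS1 (-1.04) beside TMPO, the microRNA host MIR17HG (-0.60), and the snoRNA hosts SNHG1 and SNHG12 (-0.82 and -0.86). Paraspeckle proteins SFPQ and NONO fell (-0.83 and -0.54), opposite to NEAT1, and MALAT1 rose by 1.05. Strand use in counting is not given in the sources used here, so reads of an antisense or intronic gene and of its partner may not be separated.

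**Figure D4:**
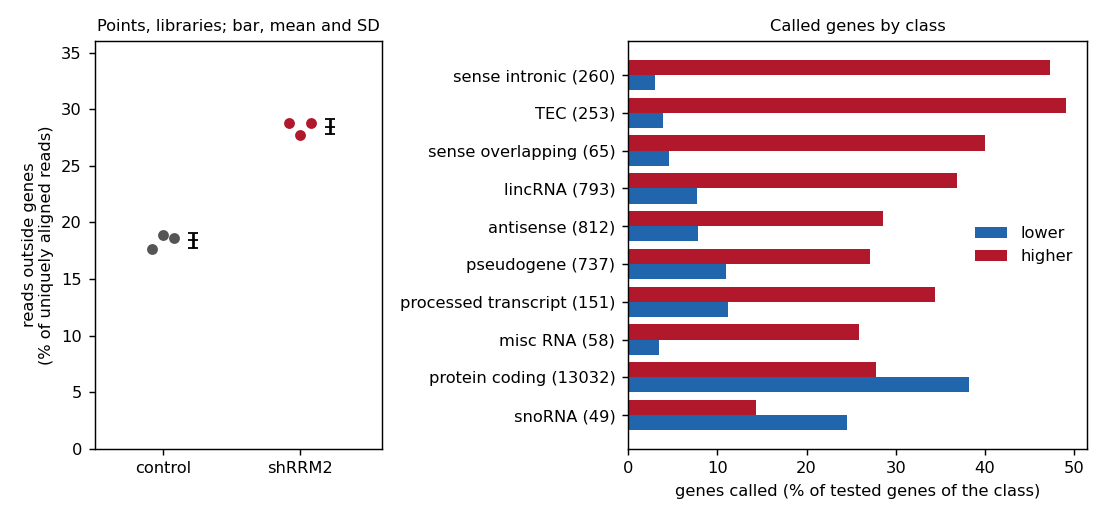
Left, reads outside annotated genes (y axis, percent of uniquely aligned reads) for each library, with mean and SD: 18.4% in control and 28.4% in shRRM2. Right, share of tested genes of each GENCODE class called higher (red) or lower (blue) in shRRM2 (x axis, percent; number tested in brackets), where TEC marks loci to be experimentally verified; sense-intronic genes were higher in 47.3%, TEC genes in 49.0% and snoRNAs in 14.3%.

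Longer genes also leaned upward. When protein-coding genes were split by genomic span into 5 equal groups, the shortest (up to 11252 bases) had 18.4% higher, 46.5% lower and a median of -0.16, and the longest (103680 bases or more) 38.5% higher, 28.1% lower and a median of 0.05. Groups by exon length gave medians from -0.17 to 0.07. The share of reads outside genes, given above, went from 18.4% ± 0.671 to 28.4% ± 0.65 of uniquely aligned reads, and its part in the results for intronic, antisense and long genes was not tested.

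**Figure D5:**
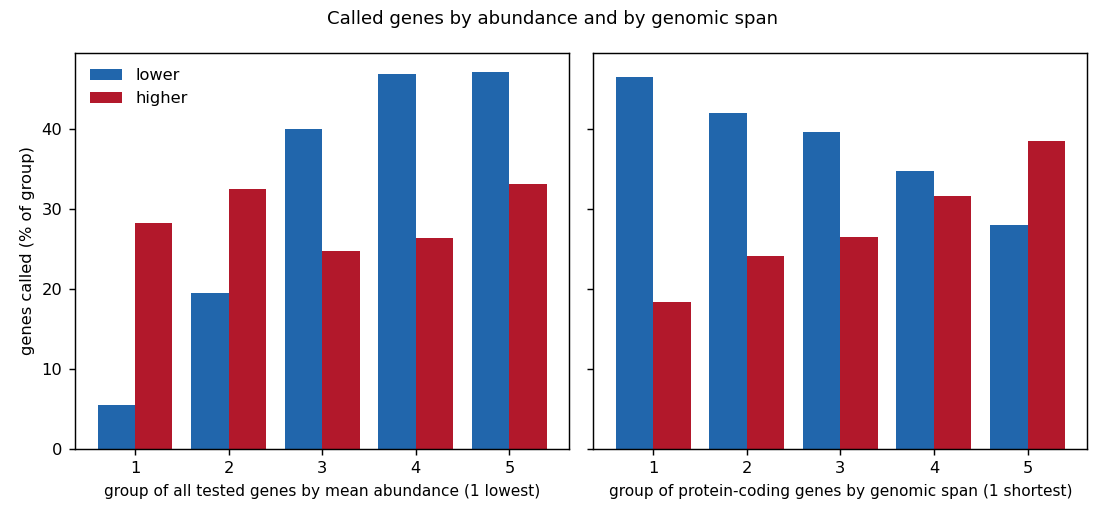
Share of genes called higher (red) or lower (blue) in shRRM2 (y axis, percent) in 5 equal groups of all tested genes by mean log2 CPM (left) and of protein-coding genes by genomic span (right). Lower calls grow with abundance from 5.49% to 47.2%, and with span they shrink from 46.5% to 28.1% while higher calls grow from 18.4% to 38.5%.

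Genes often used as constant references were not constant in these libraries. All 18 were called, 16 lower and 2 higher, with a median of -0.28. GAPDH went from 6106, 5782 and 6029 CPM in control to 4214, 4329.8 and 4142 CPM in shRRM2 (-0.50 ± 0.02, adjusted p 2.0e-22), ACTB went from 11099 to 9176 CPM, and TFRC and HPRT1 fell (-0.84 and -0.80). PPIB rose by 0.17. Under the alternatives tried, 14 to 16 of them were lower and 2 higher.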

How the data were processed

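RNA-seq libraries were made with a stranded kit after ribosomal RNA removal, per the labels' protocols. Each library has a deposited file of raw counts for Ensembl genes, in the layout of HTSeq. TopHat2 2.0.9, Cufflinks 2.0.2, Cuffdiff and GRCh38 are named in the submitters' processing notes; the strand setting of the counting and the annotation release are not given in the sources used here. A deposited table of log2 RPKM was not used. Tally rows entered neither library sizes nor tests. Reads outside genes came to 23.1% to 24.9% of gene counts in control and 41.0% to 42.9% in shRRM2, and ambiguous reads to 5.55% to 7.89%. No column of per-sample values without a sample was used (0 found).

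Counts were tested with edgeR 4.0.16 (R 4.3.3): filterByExpr kept 16561 of 64253 genes with 99.8% of counts, libraries were scaled by TMM, and 1 quasi-likelihood fit took all 9 libraries, with a term for each group, leaving 6 residual degrees of freedom. P-values are two-sided with Benjamini-Hochberg adjustment over all tested genes, called at 0.05. CPM are counts scaled to the TMM-adjusted library size, errors of fold changes are standard errors, and n is 3 per group. Groups whose libraries all hold 3 counts or fewer were at the floor, and folds against them are lower bounds. Floors cover counting error only, since PCR reads carry no molecular identifiers, while standard errors also hold the spread between libraries. Symbols, classes and spans came from GENCODE release 29 (56591 identifiers matched). Within a group, pairs of libraries differed by more than sampling noise, and none was counted as a duplicate. The fit was first checked on simulated counts in which 200 genes were changed.

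The members and the 53 gene lists were chosen with earlier results of these data known. Named genes are a fixed set of cell cycle inhibitors and RRM subunits, the 12 highest and 12 lowest called genes without overlap whose mean log2 CPM over all 9 libraries reached 2, up to 4 highest and 4 lowest called members per list and uncalled members of lists with up to 20 genes, 5 genes per group at the floor, extremes of each noncoding class, reference genes, markers and promoter genes; GLB1 was added for its known use, after its values were seen. Alternatives were RLE size factors, DESeq2 1.42.0, limma 3.58.1, 2 other count filters, the 6 libraries alone, a replicate block, leaving out each library and, chosen after seeing the data, well-counted protein-coding genes alone and total counts without scaling.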

Additional observations from a re-analysis of the deposited data

How the results depend on the processing

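RRM2 lay between -2.89 and -3.01 under the alternatives run, and the number of genes called lay between 7647 and 10265, and between 9459 and 9672 when 1 library was left out. The number called at 2-fold or more depended on the filter on low counts: 976 (580 higher) with at least 10 counts in every library, and 585 (261 higher, 324 lower) when well-counted protein-coding genes were fitted alone, where fewer genes were tested. Letters a, b and c did not pair the libraries, with correlations of deviations of -0.062, -0.095 and 0.060 for same-letter libraries. With the letter as a replicate block 10101 genes were called, 10003 of them shared with the fit without it, and the block was not read as pairing. Of 426 called named genes, 38 lost their call under 1 or more alternatives, 29 of them when 1 library was left out. MT-ND5 became 0.073, MT-CO1 0.0017 and COL3A1 0.023 when well-counted protein-coding genes were fitted alone, each a change of sign, and the cause was not tested. Lists with more higher than lower members numbered 12 to 21, and those with more lower members 29 to 38. The median changed sign under some alternative in 12 of the 53 lists. Depth limits genes with few counts, such as CXCL2, CTSS and MMP12.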
